A study of Mus musculus with 45 samples.

Results

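ATACseq counts 2 h after the depletion of OCT4 were compared with counts of untreated cells, in 4 of the 45 samples of the series. The compared libraries are 2 of mouse embryonic stem cells (mESCs) of the OCT4-FKBP line given DMSO (NT, not treated) and 2 of the same line given 500 nM dTAG-13 for 2 h (2H). In this line, of the V6.5 background and obtained from another laboratory, OCT4 carries the FKBP F36V tag, so that dTAG-13 sends the tagged protein to the proteasome. The untreated cells carry the tag too, and all cells grew on gelatin in serum-free medium with 2i and LIF, which keeps mESCs in the naive state. The SOX2-FKBP and NANOG-FKBP lines used beside it are of the E14 background, so a difference between lines cannot be told apart from a difference between backgrounds. The labels number the replicates but do not say that they were separate cultures, and p-values then measure only the spread between these libraries. Protein amounts are not part of the counts, so the loss of OCT4 itself was not checked here.

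OCT4, the product of Pou5f1, is a POU-family transcription factor that maintains pluripotency. Its POU domain recognises an octamer in DNA, and together with SOX2 it binds a composite site in which a SOX site lies next to the octamer. OCT4 and SOX2 are regarded as pioneer factors, which bind sites within nucleosomes and help to keep enhancers accessible. In ATACseq the transposase Tn5 cuts DNA that is open, and fragments counted in a peak measure how accessible that open chromatin region (OCR) was in the bulk of cells. A lower count can come from fewer cells with the region open or from a less open region in each cell, and these cannot be told apart in bulk samples.

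Sequences from the mm10 genome at lost and gained peaks show the sites that the motif results below turn on. Each gives the match in capitals with 30 bases on each side, written 5′ to 3′ on the strand named, and bears the name of the nearest protein-coding gene. The composite site was taken as CNTTGT, 1 free base and ATGCAAAT, with up to 2 mismatches. The mismatches may lie in either part. In the Lats2 match below both lie in CNTTGT, the SOX part, and the octamer is exact. Capitals mark that match in these 5 lost peaks, with Robo1 and Nrg3 among the largest losses, Lats2 and Dppa3 at named regulators, and Sox2, a smaller loss, at the gene of the partner factor.
Robo1 (chr16:71835478-71835552, minus strand): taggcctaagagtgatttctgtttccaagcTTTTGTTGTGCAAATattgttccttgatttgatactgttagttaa
Nrg3 (chr14:38321080-38321154, plus strand): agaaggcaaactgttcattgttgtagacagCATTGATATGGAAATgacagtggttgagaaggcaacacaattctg
Lats2 (chr14:57732805-57732879, minus strand): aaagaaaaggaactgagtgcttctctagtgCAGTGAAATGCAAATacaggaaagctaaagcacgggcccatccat
Dppa3 (chr6:122624651-122624725, minus strand): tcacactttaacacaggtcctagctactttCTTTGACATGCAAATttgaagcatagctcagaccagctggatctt
Sox2 (chr3:34654019-34654093, plus strand): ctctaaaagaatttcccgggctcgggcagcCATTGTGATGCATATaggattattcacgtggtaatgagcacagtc
Capitals mark an exact octamer, ATGCAAAT, in these 2 lost peaks without the composite site, and in the Kynu peak an octamer with 1 mismatch.
Il33 (chr19:29945673-29945740, minus strand): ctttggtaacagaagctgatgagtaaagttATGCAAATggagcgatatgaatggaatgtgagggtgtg
Tfap2a (chr13:40653086-40653153, minus strand): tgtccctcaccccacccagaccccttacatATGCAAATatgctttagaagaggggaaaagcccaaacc
Kynu (chr2:43365950-43366017, minus strand): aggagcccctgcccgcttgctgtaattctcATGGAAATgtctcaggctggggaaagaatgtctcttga
Of the gained peaks, the Lrrc8c peak is shown because it held a composite match, and the Esrrb peak because it held the site of the nuclear receptor ESRRB, TCAAGGTCA.
Lrrc8c (chr5:105568276-105568350, minus strand): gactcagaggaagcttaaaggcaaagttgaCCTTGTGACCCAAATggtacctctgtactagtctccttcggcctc
Esrrb (chr12:86386053-86386121, minus strand): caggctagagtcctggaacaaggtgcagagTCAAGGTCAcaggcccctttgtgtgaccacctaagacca
In the Foxp1, Tex13c1 and Pou2f3 peaks, which also lost much of their counts, no octamer with up to 1 mismatch lay within the 200 bp window around the summit.

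Loss of accessibility was the more frequent and the larger change after 2 h of OCT4 depletion. Of 184964 peaks, 166430 exceeded 10 counts in at least 7 of the 27 libraries fitted and were tested. At an adjusted p below 0.05 (edgeR quasi-likelihood test, Benjamini-Hochberg), 8480 peaks were lost, 5.1% of those tested, and 3194 were gained, 1.92%. Losses thus made up 72.6% of the differentially accessible regions (DARs). With the replicate number as a block, which pairs the libraries here, 12326 peaks were lost and 8607 gained, and these included every peak called without it. The number of calls depended on single libraries. Lost peaks numbered 5185 without NT replicate 2, 5130 without 2H replicate 1 and 5046 without 2H replicate 2, and gained peaks 1327 without NT replicate 1, 2117 without NT replicate 2 and 1407 without 2H replicate 1. At an unadjusted p below 0.05, 15572 peaks were lower and 11388 higher. The median log2 fold change over all tested peaks was 0.02.

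The lost peaks kept a median of 33.8% of their untreated level. Their median normalized count went from 53.3 in NT to 17.5 at 2 h, and their median log2 fold change was -1.56, with quartiles of -1.99 and -1.21. Of these peaks, 7581 (89.4%) had a log2 fold change of -1 or below, 2067 (24.4%) were at -2 or below and 240 (2.83%) at -3 or below. The gained peaks changed less. Their median went from 37.3 to 80.4 normalized counts, a median log2 fold change of 1.11 with quartiles of 0.93 and 1.35. A log2 fold change of 1 or more was found in 2096 (65.6%) of them, of 2 or more in 72 and of 3 or more in 2. Both 2 h libraries lay on the same side of both NT libraries in 8460 (99.8%) of the lost and 3175 (99.4%) of the gained peaks. Among all tested peaks, both 2 h libraries lay below both NT libraries in 21.5% and above them in 21.4%. The calls were made on these same libraries, so the separation of called peaks follows largely from the call and is no separate evidence. The smallest called changes were -0.62 and 0.61 on the log2 scale.

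**Figure D1:**
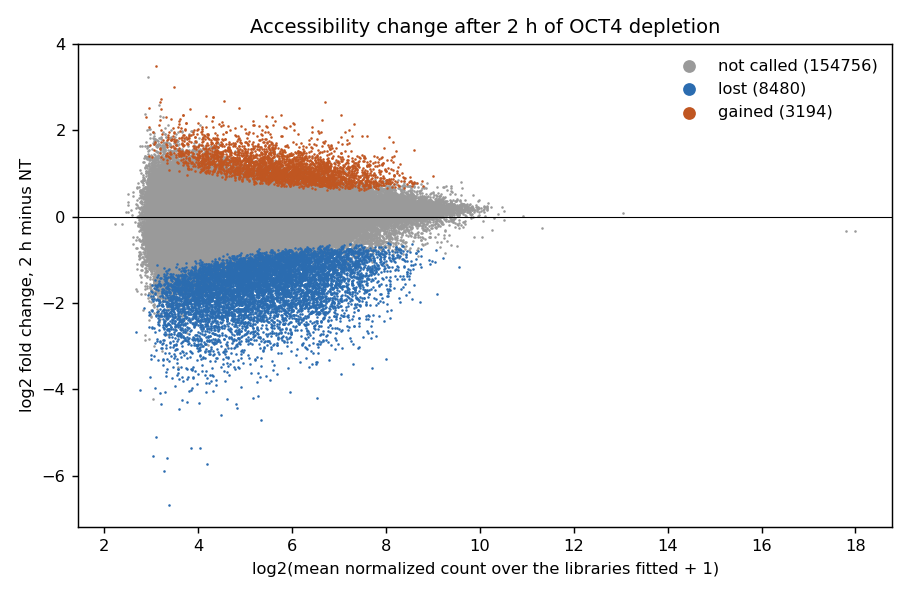
Log2 fold change at 2 h of OCT4 depletion (y axis) against the log2 mean normalized count plus 1 (x axis) for all tested peaks, with lost and gained peaks coloured. The 8480 lost peaks reach below -4 on the log2 scale, while few of the 3194 gained peaks pass 2.

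Total counts per library were 12917698 and 17575631 in NT and 11316167 and 15199242 at 2 h, so depth differed more between the replicate numbers than between the conditions. The mitochondrial share of counts was 6.65% and 2.19% in NT and 4.45% and 2.47% at 2 h, higher in replicate 1 of both groups. Replicates differed by more than sampling noise, with a chi-square per peak of 5.65 in NT and 3.51 at 2 h. Promoters of embryonic stem cell markers had a peak for 7 of 8 genes, with summed normalized counts of 1745 and 1861 in NT and 1837 and 1570 at 2 h. Promoter peaks were also present for 14 of 17 trophectoderm genes (2672 to 2960 in NT, 2519 to 2734 at 2 h) and 13 of 15 primitive endoderm genes (2152 to 2243 in NT, 2333 to 2515 at 2 h). An open promoter does not by itself mark expression. For fibroblasts, the cells of feeder layers, 4 of 10 genes had a promoter peak (318.8 and 349.9 in NT, 374.7 and 368.8 at 2 h), at Col1a2, Thy1, Tbx15 and Dcn, and Col1a1, Col3a1, Twist1, Prrx1, Col6a3 and Lum had none. Of 51 promoter peaks at the genes of the 4 lists, 0 were lost or gained in edgeR and 0 in DESeq2, and 2 had an unadjusted p below 0.05. Of all tested peaks within 500 bp of a protein-coding start, only 0.569% were lost and 0.873% gained. At those shares 0 of 51 does not set these promoters apart.

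The largest losses lay far from promoters and left few counts in both 2 h libraries. Named here are peaks whose mean in the higher group reached 50 normalized counts. The largest of these, near Tex13c1 (chrX:43466788-43468277, intergenic, 123673 bp from the start site), had 141 and 140 normalized counts in NT and 10.1 and 5.6 at 2 h, a log2 fold change of -4.20 (SE 0.33, edgeR adjusted p = 9.59e-11). An intergenic peak near 2700062C07Rik had 56.1 and 68.6 counts in NT and 1.84 and 4.35 at 2 h (-4.19, SE 0.48). Kynu codes for kynureninase, an enzyme of tryptophan breakdown, and the peak 189285 bp from its start (chr2:43365860-43366551) fell from 41.3 and 71.8 to 3.67 and 3.11 (-4.05, SE 0.41). These peaks were chosen among those whose groups do not overlap. Robo1, a receptor for SLIT guidance cues, had a lost peak 472813 bp away (chr16:71835169-71835855), with 74.8 and 75 counts in NT and 4.59 and 5.6 at 2 h (-3.82, SE 0.38). In Foxp1, which codes for a forkhead transcription factor, an intronic peak 7379 bp from the start (chr6:99240608-99241184) went from 42.9 and 60.6 to 3.67 and 3.73 (-3.77, SE 0.40). Nrg3 codes for a neuregulin, a ligand of an ERBB receptor, and the peak nearest to its start, though 1151715 bp away (chr14:38320466-38321538), fell from 97.4 and 92.5 to 7.35 and 6.84 (-3.73, SE 0.33). Naming the nearest start site locates a peak and does not show that it acts on that gene.

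Gains of the same count level were smaller and lay closer to genes. The largest was in an intron of Scube1, with Ttll12, a tubulin tyrosine ligase-like gene, as the nearest start (chr15:83639883-83641198). It had 30.4 and 25 normalized counts in NT and 212 and 139 at 2 h, a log2 fold change of 2.66 (SE 0.33, edgeR adjusted p = 3.82e-07). Dynlt1b, a dynein light chain gene, had an intergenic gain (chr17:6445717-6446561) from 18.7 and 40.9 to 181 and 139 (2.37, SE 0.37). Lrrc8c codes for a subunit of volume-regulated anion channels, and its intronic peak (chr5:105568162-105568980) rose from 9.35 and 16.5 to 89.1 and 51.6 (2.36, SE 0.49). A peak in the untranslated region of Cygb, the cytoglobin gene, with Prcd as the nearest start (chr11:116645451-116645946), rose from 18.7 and 21.3 to 100 and 101 (2.32, SE 0.31). Mmp15 codes for a membrane-bound matrix metalloproteinase, and an intronic peak (chr8:95358429-95359495) rose from 42.1 and 33.5 to 219 and 141 (2.25, SE 0.26). An intronic peak of 2900026A02Rik rose from 22.6 and 8.51 to 82.7 and 57.2 (2.22, SE 0.35). In 5 of these 6 peaks replicate 1 was the higher library at 2 h, the exception being the Cygb peak with nearly equal values.

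**Figure D2:**
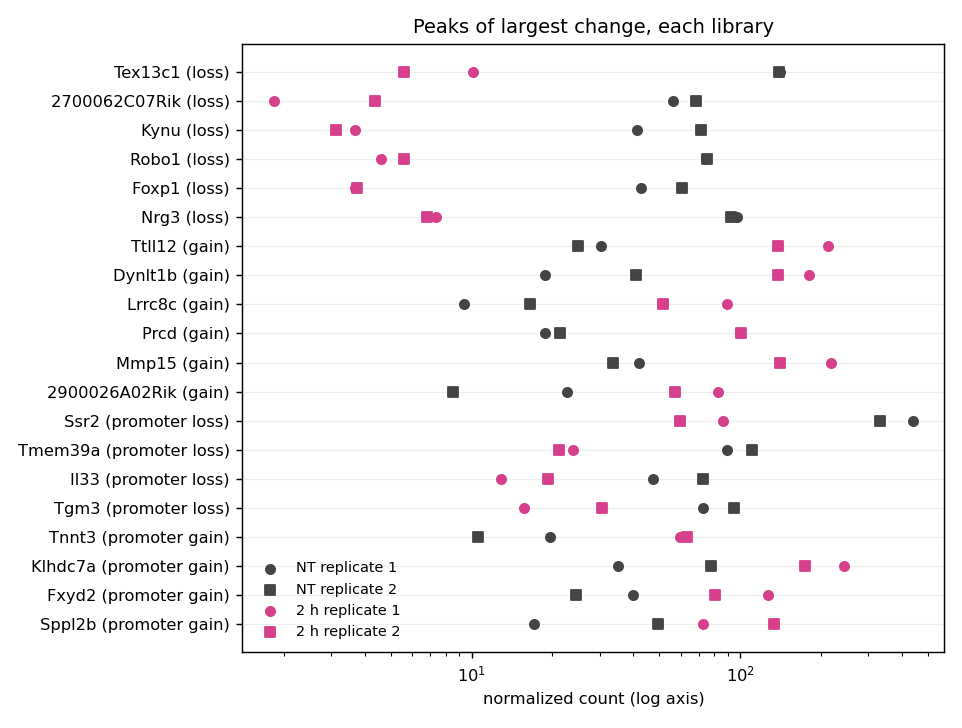
Normalized counts (log axis) of 20 peaks among the largest losses and gains, overall and at promoters, as 1 point per library for NT and 2H. The peaks were chosen among those whose groups do not overlap, so the plot shows the size of the changes, from 439 and 331 to 86.3 and 59.7 at Ssr2 for example.

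DARs were scarce at promoters. Of 15808 tested peaks with a summit within 500 bp of a protein-coding start, 90 were lost (0.569%) and 138 gained (0.873%), so promoters held 1.06% of the lost and 4.32% of the gained peaks but 9.51% of those tested. The share lost rose with distance in every step, from 4.11% at 500 bp to 5 kb to 4.17% at 5 to 20 kb, 4.83% at 20 to 50 kb, 6.47% at 50 to 100 kb, 9.36% at 100 to 500 kb and 16.9% beyond 500 kb. The share gained was highest at 500 bp to 5 kb, with 2.54%, and beyond the promoter it was lowest at more than 500 kb, with 1.22%. The median distance from a start was 37390 bp for lost, 18590 bp for gained and 19120 bp for all tested peaks. Intergenic regions held 57.0% of lost and 49.3% of gained peaks, against 44.2% of those tested, and introns 41.1%, 45.6% and 45.8%. Coding exons held 0.708% of lost, 1.97% of gained and 4.53% of tested peaks. On the X chromosome 9.32% of tested peaks were lost, against 3.6% to 6.39% on the autosomes.

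The few promoter losses included strong ones. At Ssr2, a subunit of the translocon-associated complex of the endoplasmic reticulum, the promoter peak (chr3:88575418-88575981, summit 185 bp upstream) had 439 and 331 normalized counts in NT and 86.3 and 59.7 at 2 h, a log2 fold change of -2.41 (SE 0.31, edgeR adjusted p = 7.32e-07). The Tmem39a promoter fell from 89.6 and 111 to 23.9 and 21.1 (-2.17, SE 0.29). Il33, which codes for an alarmin cytokine, fell from 47.5 and 72.9 to 12.9 and 19.3 (-1.88, SE 0.34), and the exact octamer shown above lies in that promoter peak. At Tgm3, a transglutaminase of the epidermis, counts fell from 72.5 and 94.7 to 15.6 and 30.5 (-1.81, SE 0.31). In all, 60 promoter losses were at -1 or below.

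Promoter gains were smaller than the strongest promoter losses. The largest, at Tnnt3, the troponin T gene of fast skeletal muscle, rose from 19.5 and 10.6 to 59.7 and 63.4 (2.08, SE 0.41, edgeR adjusted p = 0.000466). Klhdc7a rose from 35.1 and 77.6 to 244 and 174 (1.85, SE 0.35). At Fxyd2, which modulates the sodium-potassium pump, counts rose from 39.8 and 24.5 to 127 and 80.9 (1.70, SE 0.38), a call that was lost without NT replicate 2 (1.38, adjusted p = 0.0963) or 2H replicate 1 (1.36, adjusted p = 0.0748). The Sppl2b peak, at an intramembrane protease gene, rose from 17.1 and 49.5 to 72.6 and 134 (1.60, SE 0.41), and was not called without NT replicate 1 (1.08, adjusted p = 0.219) or 2H replicate 2 (1.09, adjusted p = 0.267), nor in DESeq2 (1.64, adjusted p = 0.273). Of the promoter gains, 52 were at 1 or above on the log2 scale.

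**Figure D3:**
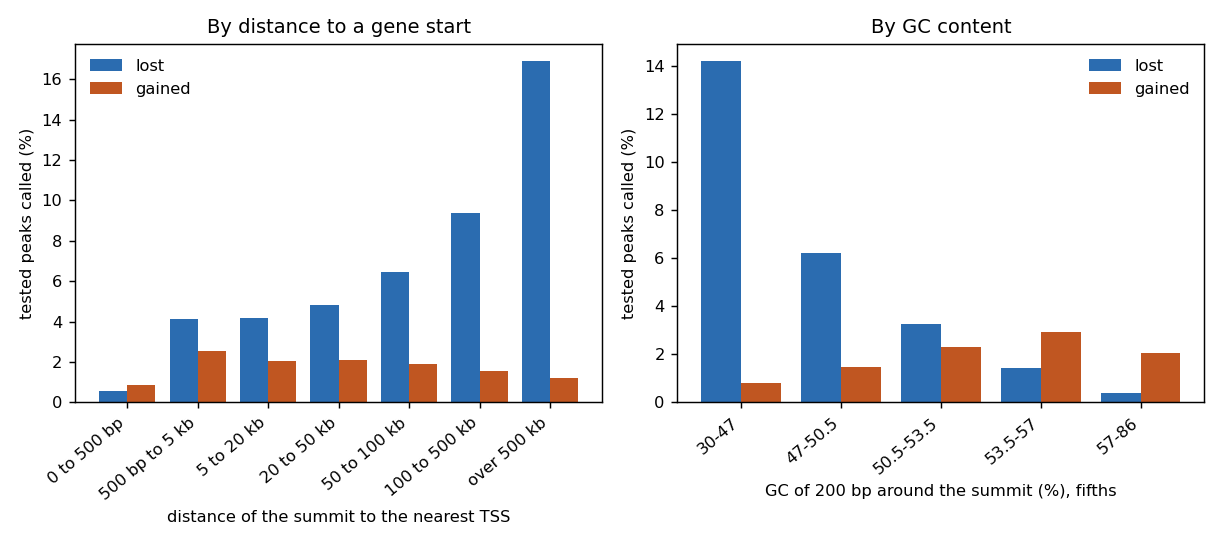
Percent of tested peaks lost and gained, by distance of the summit from the nearest protein-coding start (left) and by GC content of the 200 bp around the summit in 5 equal groups (right). The share lost rises from 0.569% within 500 bp to 16.9% beyond 500 kb and falls from 14.2% to 0.391% with rising GC content.

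Lost peaks were poor in GC and gained peaks were not. Median GC content in the 200 bp window was 46.5% in lost, 53.5% in gained and 52.0% in all tested peaks. In 5 equal groups of rising GC content, 14.2%, 6.23%, 3.26%, 1.44% and 0.391% of tested peaks were lost, and 0.827%, 1.49%, 2.29%, 2.93% and 2.07% gained. With the replicate block and offsets for GC content the order held for losses, from 12.9% in the group lowest in GC to 1.68% in the highest. For gains it turned, with 6.07%, 5.88%, 5.93%, 5.40% and 3.38%, so the gained peaks' GC content depended on the fit. Median peak width was 847 bp in lost, 855 bp in gained and 694 bp in all tested peaks.

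Composite sites and octamers were frequent in lost peaks and nearly missing from gained peaks. A composite match, in the form spelled out with the sequences above, lay in 12.5% of lost, 0.0626% of gained and 1.38% of all tested peaks with sequence. Of the 2287 tested peaks with such a match, 1059 (46.3%) were lost and 2 gained. The gained ones were the Lrrc8c peak shown above and a peak in the untranslated region of Arhgap26, singled out after its values were seen, which had 0.0 and 0.532 normalized counts in NT and 5.51 and 4.35 at 2 h. An exact octamer lay in 10.8% of lost, 0.188% of gained and 2.08% of all peaks, and 26.4% of the peaks with one were lost. With 1 mismatch allowed in the octamer the shares were 48.8%, 5.51% and 15.9%. Some octamers are part of a composite match. A composite match can also be an exact octamer with all its mismatches in the SOX part, as in the Lats2 peak. The dimer site MORE, taken as ATGCAT followed directly by ATGCAT with up to 1 mismatch, lay in 0.366% of lost peaks, in 0 gained peaks and in 0.115% of all. Within the 5 groups of GC content, a composite match lay in 13.6%, 11.1%, 12.2%, 10.2% and 6.92% of lost peaks, against 3.3%, 1.73%, 1.05%, 0.58% and 0.216% of all. In lost peaks its centre lay a median of 30 bp from the summit. These matches are descriptions of sequence and do not show binding.

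Peaks with larger losses held the sites more often. The composite share was 11.7% for log2 fold changes above -1, 11.3% from -2 to -1, 15.2% from -3 to -2 and 22.9% at -3 or below. An octamer with up to 1 mismatch lay in 36.7%, 46.9%, 58.2% and 67.5% of these classes. The distance from a start also rose with the size of the loss, from a median of 23830 bp to 80180 bp, while median GC content went from 49.0% to 43.0%. Of the lost peaks, 61.2% held no composite, exact octamer or SOX match (CNTTGTT) in the window.

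Some other sites were more frequent in gained peaks than in all tested peaks, a comparison made without a test. These shares were not split by GC content, which differed between gained and all tested peaks. The ESRRB site lay in 5.85% of gained, 1.24% of lost and 1.91% of all peaks. The site of the AP-1 dimers, TGANTCA, lay in 11.7% of gained, 8.98% of lost and 6.98% of all peaks. Sites of KLF factors (GGGNGTGG) were found in 18.0%, 12.1% and 13.4%, and those of TFAP2 factors (GCCNNNGGC) in 11.6%, 4.77% and 8.83%. SOX matches lay in 18.2% of gained peaks and 24.1% of lost peaks, against 13% of all. TEAD sites (CATTCC) lay in 14.5% of gained, 18.2% of lost and 13.6% of all peaks, and GATA sites (AGATAA) in 7.61%, 9.04% and 6.32%. The site of the insulator protein CTCF was less frequent in DARs, at 1.3% of lost and 1.35% of gained peaks against 8.93% of all. Each motif was searched on both strands, with no mismatch unless stated.

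**Figure D4:**
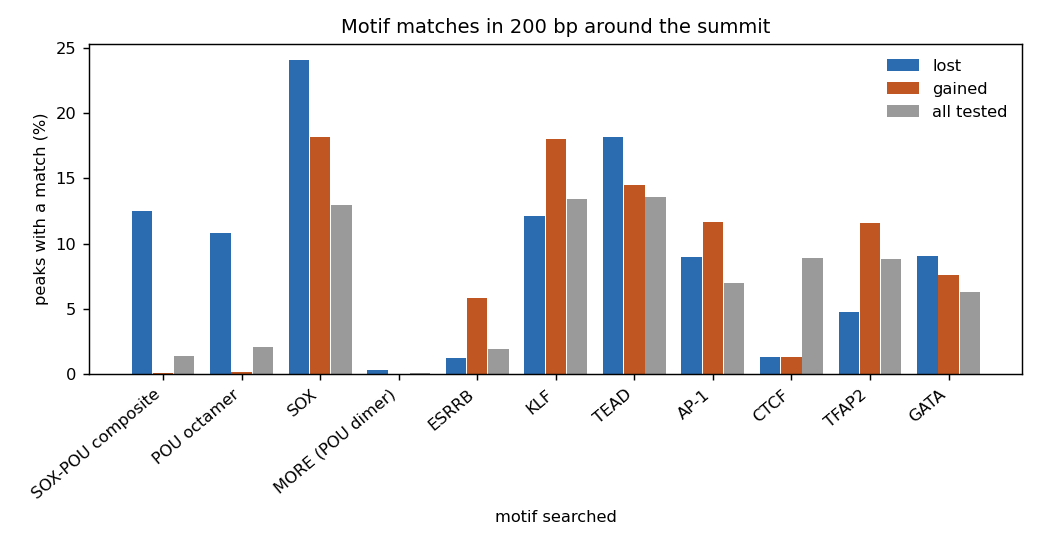
Percent of lost, gained and all tested peaks with at least 1 match of each motif in the 200 bp around the summit. The composite site stands at 12.5% in lost against 0.0626% in gained peaks, and the ESRRB site at 5.85% in gained against 1.24% in lost peaks.

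A higher share of peaks was lost near the listed core and naive pluripotency factors than near all genes, a comparison made without a test. Within 100 kb of the nearest protein-coding start, 4.26% of peaks of all genes were lost and 1.99% gained. For 18 core and naive pluripotency factors 48 of 512 peaks (9.38%) were lost, near 15 of the genes, and 8 were gained. The median log2 fold change was -0.07 for the list and 0.04 for all genes. Tfcp2l1, a transcription factor of the naive state, had 15 lost of 35 peaks, more than any other gene. The higher share of the list thus rests in large part on this gene. A share above that of all genes was also found for the fibroblast list, with 7.79% lost. Klf5, of the KLF family of naive factors, had 7 lost of 39, Prdm14, a repressor of differentiation, 4 of 34, and Klf2 3 of 13. Other members went the other way or changed little. Esrrb had 1 lost and 2 gained of 60, Sall1 0 lost and 1 gained of 42, Tbx3 2 lost and 2 gained of 46, and Nanog 0 lost of 16. For 13 target genes of SOX2 and OCT4, 12 of 169 peaks (7.1%) were lost and 1 gained. For 16 genes of the formative and primed epiblast with a peak the counts were 16 lost (6.93%) and 4 gained of 231. Of the 43 promoter peaks of these 3 lists, 0 were DARs in edgeR and 0 in DESeq2, and 3 had an unadjusted p below 0.05. Of all tested promoter peaks only 0.569% were lost and 0.873% gained, so 0 of 43 does not set these promoters apart.

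The losses named for the pluripotency lists, which reached 50 normalized counts, lay outside promoters. Dppa3, which shields the maternal genome from demethylation, had a peak 1740 bp upstream (chr6:122624371-122625133) with 262 and 279 normalized counts in NT and 51.4 and 58.5 at 2 h, a log2 fold change of -2.29 (SE 0.26, edgeR adjusted p = 8.53e-08). The largest loss at Tfcp2l1 with enough counts was intronic (chr1:118657897-118659609) and went from 121 and 89.9 to 23.0 and 29.9 (-1.96, SE 0.28). Fbxo15, an F-box gene used as a marker of mESCs, had an intronic loss from 72.5 and 75.5 to 18.4 and 17.4 (-2.05, SE 0.29). Foxd3, a forkhead factor needed in the epiblast, had a loss 14239 bp upstream from 81.8 and 116 to 21.1 and 18.7 (-2.33, SE 0.30). Near Otx2, a driver of the formative state, a peak 27395 bp upstream went from 214 and 189 to 80.8 and 67.2 (-1.45, SE 0.29). Zfp42, known as Rex1, is a marker of the naive state, and a peak 18763 bp from its start went from 440 and 208 to 88.2 and 139 (-1.49, SE 0.34). That call was lost without NT replicate 1 (-0.86, adjusted p = 0.226) or 2H replicate 1 (-1.22, adjusted p = 0.1), and the NT libraries lay far apart.

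Gains at these genes were fewer. Sox4, a SOX-family factor of many progenitors, had an intergenic gain 35874 bp from its start (chr13:28917331-28918326). Counts rose from 13.3 and 16.0 to 84.5 and 51.6 (2.17, SE 0.40, edgeR adjusted p = 0.000214). Esrrb, a nuclear receptor of the naive network, had an intronic gain (chr12:86385801-86387223) from 51.4 and 81.4 to 134 and 165 (1.16, SE 0.34, edgeR adjusted p = 0.0266). The Esrrb call was lost without NT replicate 1 (0.88, adjusted p = 0.295), 2H replicate 1 (1.29, adjusted p = 0.056) or 2H replicate 2 (1.02, adjusted p = 0.19). It was also lost in DESeq2 (adjusted p = 0.0705).

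Within 20 kb of the starts of Pou5f1, Sox2 and Nanog, few peaks changed. Of 6 peaks at Pou5f1, the gene of OCT4, 1 was gained, 17662 bp upstream (chr17:35488085-35489004), with 72.5 and 61.7 counts in NT and 111 and 113 at 2 h (0.74, SE 0.23, edgeR adjusted p = 0.0365). The Pou5f1 call was lost whichever library was left out, with adjusted p from 0.0745 without NT replicate 1 through 0.134 and 0.139 without 2H replicate 2 and 1 to 0.279 without NT replicate 2. The peak over the Pou5f1 start had 1190 and 951 counts in NT and 1250 and 1100 at 2 h. Of 12 peaks at Sox2, 1 was lost, 3633 bp downstream of the start (chr3:34653366-34654148), from 97.4 and 122 to 68.0 and 48.5 (-0.94, SE 0.24, edgeR adjusted p = 0.00804). The Sox2 call was lost without NT replicate 2 (-0.75, adjusted p = 0.17) or 2H replicate 2 (-0.67, adjusted p = 0.247). Of 10 peaks at Nanog 0 were called by edgeR or DESeq2, and 0 had an unadjusted p below 0.05. The largest change there had 283 and 158 counts in NT and 177 and 110 at 2 h (-0.62, SE 0.33, edgeR adjusted p = 0.366), and the groups overlapped. With the replicate block it was called (-0.60, adjusted p = 0.0135).

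Near regulators of extraembryonic lineages the lost shares were close to or below the 4.26% of all genes, where 1.99% were gained. For 17 trophectoderm genes with a peak 13 peaks were lost (4.44%) and 10 gained (3.41%) of 293, and for 15 primitive endoderm genes 5 (2.78%) and 5 (2.78%) of 180. Tfap2a and Tfap2c are trophectoderm transcription factors. The Tfap2a peak with the octamer shown above, 75792 bp from the start, fell from 42.9 and 57.4 to 11.0 and 11.8 (-2.13, SE 0.35, edgeR adjusted p = 3.36e-05). A Tfap2c peak 26389 bp from the start fell from 496 and 411 to 90.0 and 153 (-1.88, SE 0.30). Eomes, a T-box factor of trophectoderm and mesendoderm, had a gain in its untranslated region from 35.9 and 52.1 to 118 and 112 (1.36, SE 0.30), not called without NT replicate 1 (1.14, adjusted p = 0.0546). Sox7, an endoderm SOX factor, had a lost peak 6987 bp upstream (chr14:63936159-63936915), from 94.3 and 96.8 to 14.7 and 17.4 (-2.55, SE 0.34). Lama1 codes for a laminin chain of the basement membrane, and an intronic peak fell from 60.0 and 87.2 to 11.9 and 17.4 (-2.30, SE 0.38).

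Counts of the signalling lists were small, and no test compared them with the 4.26% lost and 1.99% gained of all genes. Of the Nodal list, 7 peaks were lost (3.74%) and 9 gained (4.81%) of 187, and of the LIF and BMP list 9 were lost (2.98%) and 14 gained (4.64%) of 302. Smad7, an inhibitor of TGF-beta family signals, had 5 gained and 2 lost of 58 peaks. Its strongest loss, 6495 bp upstream, went from 308 and 327 to 41.3 and 59.7 (-2.63, SE 0.29, edgeR adjusted p = 5.77e-08). Smad3, which carries the signal into the nucleus, had an intronic gain from 26.5 and 31.4 to 83.6 and 69.0 (1.38, SE 0.29). Smad6, another inhibitor, had 4 gained of 27 peaks, and Pim1, a kinase induced by STAT3, 3 of 21. Id2 and Id4 code for inhibitors of bHLH factors. A peak 27607 bp upstream of Id2 fell from 92.0 and 80.3 to 25.7 and 22.4 (-1.84, SE 0.28), and a peak 8491 bp upstream of Id4 from 67.8 and 86.2 to 25.7 and 26.1 (-1.57, SE 0.27). For the FGF-ERK list 23 peaks were lost (6.34%) and 13 gained (3.58%) of 363, both above the shares of all genes. For the Wnt list 19 were lost (4.95%) and 8 gained (2.08%) of 384, nearer to those shares. Myc, a growth regulator, had 4 lost of 29 peaks. The strongest, 23473 bp from the start, fell from 121 and 165 to 31.2 and 49.1 (-1.81, SE 0.32). Wnt8a codes for a Wnt ligand, and a peak 9594 bp from its start fell from 80.3 and 73.4 to 9.18 and 11.2 (-2.88, SE 0.37). Axin2, a feedback inhibitor of the pathway, had a gain 26984 bp upstream from 27.3 and 37.2 to 89.1 and 109 (1.60, SE 0.31).

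Lats2, a kinase of the Hippo pathway that restrains YAP, had the strongest loss named for any of the gene lists. Its intronic peak (chr14:57732416-57733285, 1415 bp from the start) fell from 329 and 287 to 25.7 and 28.0, a log2 fold change of -3.50 (SE 0.29, edgeR adjusted p = 2.44e-10). Ccn2, a target of YAP also called Ctgf, had 4 lost of 19 peaks. The strongest, 36884 bp upstream (chr10:24558035-24559017), fell from 85.0 and 85.1 to 12.9 and 19.3 (-2.36, SE 0.27). For the Hippo list as a whole 12 peaks were lost and 4 gained of 254, a lost share of 4.72% that lies near that of all genes. Wwtr1, which codes for the coactivator TAZ, had 2 lost and 1 gained of 15 peaks. The gained Wwtr1 peak, which is intronic, rose from 38.2 and 56.9 to 91.8 and 109 (1.06, SE 0.29, edgeR adjusted p = 0.0151), and was not called without NT replicate 1 (0.82, adjusted p = 0.223) or 2H replicate 2 (0.95, adjusted p = 0.141).

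Counts of the other lists were small, and no test compared them with the 4.26% lost and 1.99% gained of all genes. Other POU factors had 8 lost (5.3%) and 3 gained (1.99%) of 151 peaks, near the shares of all genes. Pou2f3, the POU factor of tuft cells, had the strongest, an intronic loss (chr9:43191341-43192230) from 105 and 130 to 11.9 and 15.5 (-3.06, SE 0.31, edgeR adjusted p = 9.71e-09). Neural and mesoderm genes had 10 lost (6.33%) and 8 gained (5.06%) of 158. Gsc, the organizer homeobox gene, had 4 lost of 23. The strongest, 34767 bp upstream, fell from 47.5 and 60.1 to 6.43 and 12.4 (-2.44, SE 0.34). Pax6, a neural and eye regulator, had a loss 614 bp from its start from 166 and 141 to 39.5 and 59.7 (-1.61, SE 0.26). DNA methylation genes had 4 lost (2.7%) and 2 gained (1.35%) of 148. Tet2, which oxidises methylcytosine, had an intronic loss from 312 and 447 to 118 and 149 (-1.50, SE 0.25). Ribosomal protein genes, a list with no tie to pluripotency, had 9 lost (1.69%) and 6 gained (1.13%) of 531. Fibroblast genes had 6 lost (7.79%) and 2 gained (2.6%) of 77, a lost share above those of the SOX2 and OCT4 targets and of the formative and primed epiblast. The largest gain of the list, 49541 bp upstream of Thy1, a surface glycoprotein, rose from 41.3 and 42.0 to 170 and 159 (1.97, SE 0.29).

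Several further calls in the lists rested on single libraries. Some of these peaks lay far upstream of the gene named. Distances were 50974 bp for the Fgfr1 loss, 32739 bp at Id3, 28647 bp at Rpl38 and 28031 bp at Pou4f2. Near Gdf3, a TGF-beta family ligand, a peak had 114 and 151 normalized counts in NT and 62.5 and 74.6 at 2 h (-0.95, edgeR adjusted p = 0.0116). It was not called without NT replicate 2 (-0.71, adjusted p = 0.225), 2H replicate 1 (-0.83, adjusted p = 0.159) or 2H replicate 2 (-1.07, adjusted p = 0.0544). Near Id3, an inhibitor of bHLH factors, a peak rose from 17.1 and 7.45 to 78.1 and 26.1 (2.09, edgeR adjusted p = 0.00086), but not without NT replicate 2 (1.56, adjusted p = 0.078) or 2H replicate 1 (1.15, adjusted p = 0.233). At Sparc, a matrix protein gene of the primitive endoderm, counts rose from 42.1 and 54.8 to 108 and 85.8 (0.98), a call lost without NT replicate 1 (0.82, adjusted p = 0.153) or 2H replicate 1 (0.81, adjusted p = 0.162). Dnmt3a and Dnmt3b are the de novo DNA methyltransferases. An intronic Dnmt3a peak rose from 153 and 172 to 342 and 272 (0.91), not called without NT replicate 1 (0.83, adjusted p = 0.0613) or 2H replicate 1 (0.74, adjusted p = 0.0961). A peak upstream of Dnmt3b fell from 172 and 149 to 62.5 and 59.7 (-1.39), not called without 2H replicate 2 (-1.33, adjusted p = 0.075). Fgfr1, an FGF receptor, had a loss from 35.9 and 71.3 to 17.4 and 16.2 (-1.70), not called without NT replicate 2 (-1.08, adjusted p = 0.139), beside an intronic gain from 26.5 and 50.5 to 95.5 and 114 (1.42) that was called in every fit that tested it. A peak 82213 bp upstream of Foxf1, a mesoderm forkhead factor, in an intron of Gm20388, rose from 17.1 and 41.5 to 105 and 102 (1.76). It was not called without NT replicate 1 (1.31) or in DESeq2 (1.82, adjusted p = 0.209). Calls were also lost at Pou4f2 (0.98) without NT replicate 1 (0.56, adjusted p = 0.549) or 2H replicate 2 (0.48, adjusted p = 0.605), and at Rpl38 (1.13) without NT replicate 2 (0.79, adjusted p = 0.204) or 2H replicate 1 (0.84, adjusted p = 0.163). Near the fibroblast genes, the Col3a1 loss (-1.75) was not called without 2H replicate 1 (-1.44, adjusted p = 0.0664), nor the Tbx15 loss (-0.96) whichever library was left out, with adjusted p from 0.0586 without NT replicate 1 to 0.364 without 2H replicate 1.

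Counted by nearest gene, 4211 of 18835 genes had at least 1 lost peak, 1982 at least 1 gained and 548 both. After Tfcp2l1, the most lost peaks were near Pde4d, a cAMP phosphodiesterase (11 of 88), Dpp6, an auxiliary subunit of potassium channels (10 of 40), and Alg13, a glycosylation gene (9 of 30). Tenm4, a teneurin gene of neuronal adhesion (8 of 85), and the zinc finger gene Zfp704 (8 of 72) tied with each other. Gained peaks gathered near Bhlhe40, a bHLH repressor, with 13 of 30 gained and 2 lost, and near Hes1, an effector of Notch, with 12 of 45 gained and 0 lost. Next, with 8 gained peaks each, were 1600014C23Rik (of 23), Celsr1 (of 34), Igsf21 (of 29), Nol4l (of 36) and Rgs3 (of 45). Median log2 fold changes over all peaks of the gene were -0.78 at Tfcp2l1, 0.77 at Bhlhe40 and 0.63 at Hes1, in genes chosen for their number of called peaks. Peaks of a gene are neighbours and not independent of each other.

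The peaks lost at 2 h had lower medians at 6 h and 24 h, and the median of the gained peaks was lower at 24 h but not at 6 h. Median log2 fold changes of the lost peaks were -1.56 at 2 h, -1.87 at 6 h and -2.14 at 24 h, and of the gained peaks 1.11, 1.15 and 0.51. The comparisons share the NT libraries on which the peaks were called, so these values stand side by side and are not independent. The Lats2 peak was at -3.50, -4.32 and -4.35 and the Dppa3 peak at -2.29, -2.53 and -2.77. Some gains stayed, with 2.25, 3.10 and 3.39 at Mmp15 and 2.17, 2.57 and 3.41 at Sox4. At Esrrb a gain of 1.16 at 2 h and 1.09 at 6 h stood beside a fall by 1.43 at 24 h (edgeR adjusted p = 0.0153). At Sppl2b the values were 1.60, 0.94 and -1.06.

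In the median, the same peaks changed in part after SOX2 depletion and little after NANOG depletion for 2 h. Peaks lost in OCT4-FKBP had a median log2 fold change of -1.12 in SOX2-FKBP and -0.23 in NANOG-FKBP, and gained peaks of 0.24 and 0.04. Over all tested peaks the change was lower in OCT4-FKBP than in SOX2-FKBP at 623 peaks (0.374%) and higher at 1991 (1.2%). Among the lost peaks 538 (6.34%) were lower in OCT4-FKBP and 50 higher, and among the gained peaks 485 (15.2%) were higher. With the replicate block these were 1342 of the lost and 1145 of the gained peaks. Against NANOG-FKBP 2679 tested peaks were lower (1.61%) and 1510 higher (0.907%), among them 2602 (30.7%) of the lost and 631 (19.8%) of the gained peaks. Without the treated NANOG-FKBP replicate 2 libraries, which had at least 13.2% mitochondrial counts, 2520 and 536 remained of the lost and gained peaks. These interaction tests used the edgeR fit of the 27 libraries, and the line backgrounds differ. The lost and gained peaks were picked on the same OCT4-FKBP libraries that enter these tests. Part of the excess in their direction, and of the smaller medians in the other lines, follows from that choice.

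Among the lost peaks, the median response to SOX2 depletion differed by site type. Lost peaks with a composite match had a median log2 fold change of -1.27 in SOX2-FKBP, those with a SOX match alone -1.39, those with an exact octamer but no composite match -0.72 and those with none of the 3 -1.05. In OCT4-FKBP the medians of these 4 classes lay between -1.66 and -1.52. Of the named losses Lats2 stood apart most, with -3.50 in OCT4-FKBP and -0.35 in SOX2-FKBP, a difference of -3.16 (edgeR adjusted p = 5.43e-06). The Tmem39a promoter had -2.17 against 0.04 (difference -2.21, adjusted p = 0.00091), Pou2f3 -3.06 against -0.59 (difference -2.47, adjusted p = 0.000344) and the Tfcp2l1 peak -1.96 against 0.10 (difference -2.06, adjusted p = 0.00136). Robo1, with -3.82 and -2.82, had no detectable difference (-1.0, SE 0.62, adjusted p = 0.705). Of the 42 losses and 25 gains named by rule, 10 and 7 differed from SOX2-FKBP and 27 and 12 from NANOG-FKBP. Of these losses 26 were also called as losses in SOX2-FKBP and 5 in NANOG-FKBP. The 5 lay near Fgfr1 (-1.99 in NANOG-FKBP), Tet2 (-1.85), Il33 (-1.59), Pax6 (-1.26) and Lgr4 (-1.16). Of the named gains 2 and 1 were called in the same direction, and 1 and 2 in the opposite one.

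**Figure D5:**
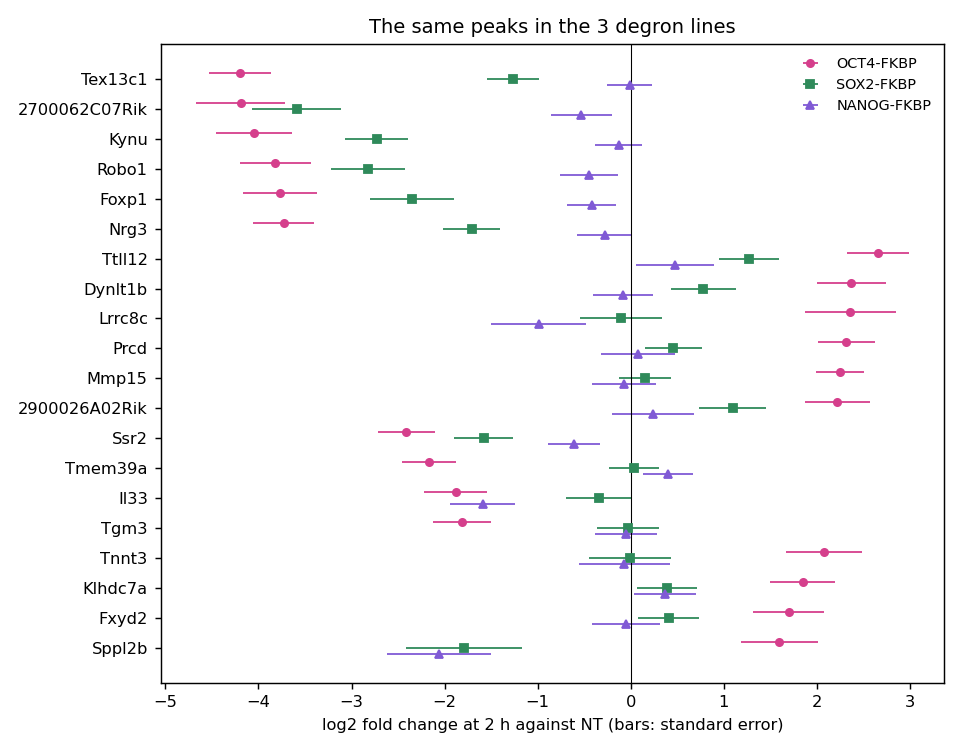
Log2 fold change at 2 h with its SE (x axis) in the OCT4-, SOX2- and NANOG-FKBP lines, for 20 peaks among the largest losses and gains overall and at promoters. The peaks were chosen for their change in OCT4-FKBP. The losses in OCT4-FKBP lie mostly with smaller losses in SOX2-FKBP, and NANOG-FKBP values lie mostly near 0, with exceptions such as Il33 at -1.59.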

How the data were processed

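ATACseq was performed on 50000 cells per reaction with custom Tn5 by the study's authors. Per the labels and methods, reads were aligned to mm10 with BWA 0.7.17-r1188, filtered for a mapping quality of 10 with SAMtools 1.10 and deduplicated with Picard 2.12.0, peaks were called with MACS2 on merged libraries, and fragments were counted per peak. The deposited values are raw counts of fragments per peak. From the peak list only positions and summits were used. Since peaks were called on pooled libraries, a listed peak is not a call in any single library. No column of per-sample values was left unmapped.

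Counts were tested with edgeR 4.0.16 in R 4.3.3 (TMM normalization, glmQLFit and glmQLFTest, Benjamini-Hochberg adjustment over all tested peaks, threshold 0.05), in 1 fit of 27 libraries of the SOX2-, OCT4- and NANOG-FKBP lines at NT, 2, 6 and 24 h. Peaks that exceeded 10 counts in at least 7 libraries were kept. Normalized counts are counts divided by the effective library size and scaled to the mean library. Standard errors were derived from the F statistic and are approximate. The test was checked on simulated counts drawn without a replicate effect. That check does not cover libraries that deviate together by replicate number. Genes are the nearest protein-coding starts of GENCODE vM21 to the summit, gene lists count peaks within 100 kb, and motifs were matched in 200 bp around the summit with pysam 0.24.0 (166284 tested peaks with sequence).

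Libraries with the same replicate number deviated together in all 6 pairs of OCT4-FKBP conditions (correlation 0.142 to 0.352), so the numbers were taken to pair the libraries. The design has no block, after the study's methods, and the block is an alternative. Named peaks reach a mean of 50 normalized counts in the higher group and, except for the loci of Pou5f1, Sox2 and Nanog, were required to have no overlap between groups. They are the 8 largest losses and 6 largest gains, the 4 largest of each within 500 bp of a start, the 2 largest losses and the largest gain of each of 15 gene lists, and the largest change within 20 kb of the starts of Pou5f1, Sox2 and Nanog. The 5 genes with most lost and most gained peaks are also named, with ties. Some items that this rule names are not reported here. Members and lists were chosen with earlier results of these data known. Alternatives were DESeq2 1.42.0, other normalizations, count filters and sample sets, leaving out each library, the replicate block with and without GC offsets, and other limits for starts and motifs. Total counts outside mitochondrial peaks and leaving out the treated NANOG-FKBP replicate 2 were chosen after seeing the data.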

Additional observations from a re-analysis of the deposited data

Results flagged for a closer look

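Of the peaks lost at 2 h of OCT4 depletion, 538 had a change that was lower in OCT4-FKBP than in SOX2-FKBP by the edgeR interaction test, and of the gained peaks 485 had a higher one. Against NANOG-FKBP the counts were 2602 and 631. The OCT4-FKBP line has another background than the E14 lines, so factor and line cannot be told apart. The lost, gained and named peaks were chosen on OCT4-FKBP libraries that also enter this test, which by itself favours differences in these directions.

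Among the named losses, the change differed from that in SOX2-FKBP most at Lats2, by -3.16 on the log2 scale, and at Tex13c1, by -2.94. The difference was -2.47 at Pou2f3, -2.35 at Sox7, -2.23 at Gsc, -2.21 at the Tmem39a promoter, -2.06 at Tfcp2l1, -2.02 at Nrg3, -1.78 at the Tgm3 promoter and -1.36 at Ccn2.

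Among the named gains, it was 3.38 at the Sppl2b promoter, where the change in SOX2-FKBP was -1.79 (edgeR adjusted p = 0.0946). It was 2.46 at Lrrc8c, 2.17 at Wwtr1, 2.10 at Mmp15, 1.99 at Sox4, 1.86 at the Cygb peak near Prcd and 1.62 at Thy1. With groups of 2 libraries, single outlying libraries could not be tested for.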

How the results depend on the processing

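No named peak turned its direction. Over the alternatives, 984 of 1051 values of 69 named peaks kept their direction and side of the threshold and 65 lost the call, 45 of them at 12 of the 25 gains and 17 at 6 of the 42 losses. The peak near Nanog gained a call under both fits with the replicate block. No call of a named peak was lost with the replicate block.

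The number of lost peaks was 2474 with at least 10 counts in all 27 libraries, a filter that tested 33328 peaks, and 5046 to 7318 with 1 library left out. With the replicate block it was 12326, and 10428 with GC offsets too. Gained peaks numbered 2085 in DESeq2, 2076 with total counts, 615 with at least 10 counts in all libraries, 1696 in the 8 OCT4-FKBP libraries alone, 8607 with the replicate block, 8867 with GC offsets too, and 1327 to 2152 with 1 library left out. The share of losses among DARs was 75.3% in DESeq2, 71.6% with DESeq2 size factors, 79.6% with total counts, 78.5% with total counts outside mitochondrial peaks, 71.5% with loess offsets, 80.1% with at least 10 counts in all libraries, 75.4% in the 4 compared libraries alone and 79.5% in the 8 OCT4-FKBP libraries. It was 58.9% with the replicate block, 54.0% with GC offsets too, and 70.1% to 84.7% with 1 library left out. The cause was not tested. Where 1 library was left out, the lone library was assumed to vary like the other groups.

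Within 1000 bp of a start lay 1.71% of lost and 5.57% of gained peaks, and within 500 bp of the start of any annotated gene 3.24% and 8.64%. Of DARs with a log2 fold change of at least 1 in size, 0.792% and 2.48% were promoter peaks. Over the whole peak, composite matches lay in 19.1% of lost and 0.971% of gained peaks and octamers in 18.6% and 2.41%. With 1 mismatch allowed, composite matches lay in 1.95% of lost and 0.0% of gained peaks and octamers in 48.8% and 5.51%. The change was lower in OCT4-FKBP than in SOX2-FKBP at 2131 tested peaks with the replicate block and 411 in DESeq2, and at 1342 of the lost peaks with the block. It was higher at 5182 tested and 1145 gained peaks with the block. Of the gene list shares 1 of 32 moved outside its binomial interval without the 100 kb limit, the only alternative applied to them. Of the shares of the other motifs 18 of 36 moved, over the whole peak or with calls of at least 1 in size.

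With 2 libraries a group, small changes at low counts were not detectable at this depth.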
